A study of Drosophila melanogaster and Drosophila simulans and Drosophila erecta with 10 samples.

Results

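The cup and comet genes are Drosophila genes that are switched on in spermatids, after meiosis, and the 10 described here are 7 cup genes (t-cup, p-cup, r-cup, d-cup, c-cup, m-cup and h-cup) and 3 comet genes (schuy, hale and boly). They were chosen by their FlyBase symbols and not by a cut on their values, though with earlier results of these data known. All 10 were found among the 7326 genes listed for Drosophila melanogaster testes. RNA-seq was done on testes of adult flies aged 3 to 5 d and reared at 25 °C. For D. melanogaster there were 2 libraries labelled control and 2 from flies labelled as miR-983 mutant, a knockout of a microRNA gene. The allele, the strain of the controls and any other mutation the flies carried are not stated in the labels. The D. simulans libraries of the same design and the small RNA libraries of D. erecta and D. sechellia were not used for these genes, since the D. simulans identifiers could not be matched to symbols and the small RNA data do not measure mRNA.

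In male germ cells of the fly, most of the transcripts that build a sperm are made in spermatocytes and stored, and little transcription is left once meiosis has ended. Cup and comet genes depart from that rule. They are transcribed in elongating spermatids, and their mRNAs collect at the ends of the spermatid bundle in shapes that recall a cup or a comet, hence the names. The best understood gene of the kind is soti (scotti), whose protein inhibits a Cul3 ubiquitin ligase and so helps to place caspase activity along the spermatid during individualization, the step that strips cytoplasm from the sperm. For most of the 10 genes no molecular role is given here, and they are described by name.

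None of the 10 genes passed the test between the mutant and control testes. The limma fit across all genes, adjusted by Benjamini-Hochberg at a threshold of 0.05, called 0 of the 10, against 2.28% of all 7326 genes. The adjusted p of the 10 ran from 0.201 for t-cup to 0.964 for d-cup. At an unadjusted p under 0.05 it was 1 gene, t-cup, against 12.7% of all genes. The authors' deposited table has a mark for p under 0.05 by DESeq2, whose header does not say whether p was adjusted. It marks 0 of the 10 and 1.65% of all genes. The count was also 0 with any 1 library left out. Such a fit takes the spread from the genotype that keeps both libraries and assumes that the lone library varies alike. In these fits the number of all genes called moved from 167 to 304 without control replicate 1 and to 259 without control replicate 2. The series text calls the replicates biological and does not say how many animals each library held.

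**Figure D1:**
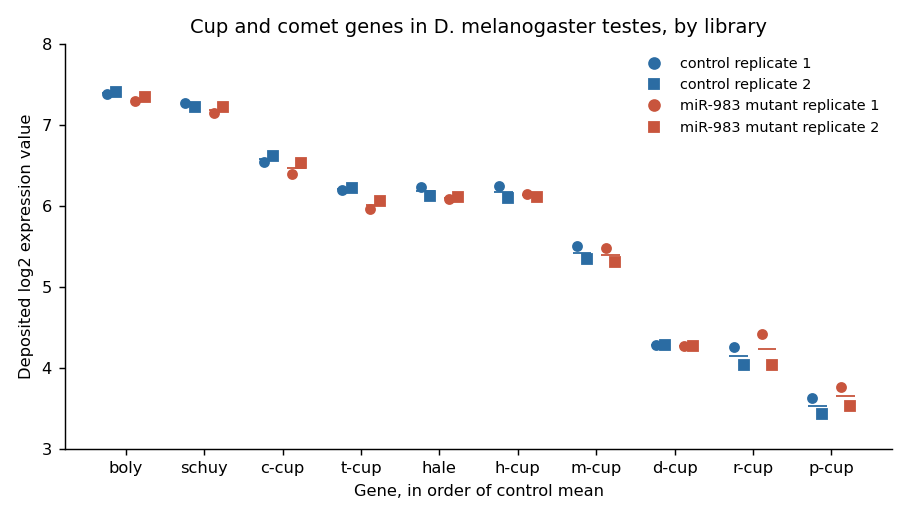
Deposited log2 value (vertical axis) of each of the 10 genes (horizontal axis) in each library; points are libraries, short lines are genotype means of 2 libraries. The genes run from about 7.40 (boly) to 3.53 (p-cup) in the control mean, and mutant and control points of a gene lie close together beside that range.

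The deposited values placed the comet genes boly and schuy highest. boly had log2 values of 7.39 and 7.41 in the controls against 7.30 and 7.35 in the mutants. Both mutant values were below both controls, by a margin of 0.039. Its log2 fold change was -0.08 ± 0.06 (SE; 95% confidence interval -0.22 to 0.06; limma adjusted p = 0.706).

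schuy stood at 7.27 and 7.22 in the controls against 7.15 and 7.22 in the mutants. Its genotypes were separated by only 0.00074, since the nearest libraries were at 7.2212 (control) and 7.2204 (mutant). The log2 fold change of schuy was -0.06 ± 0.06 (SE; interval -0.21 to 0.08; limma adjusted p = 0.791).

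hale, the third comet gene, had values of 6.23 and 6.12 in the controls against 6.08 and 6.11 in the mutants. One control library stood 0.11 above the other, whereas the mutant libraries lay just below the lower control, by 0.011 at the nearest. The log2 fold change was -0.08 ± 0.06 (SE; interval -0.23 to 0.07; limma adjusted p = 0.701). Thus the log2 fold changes of the 3 comet genes among the 10 lay between -0.08 and -0.06. Their median was -0.08, beside -0.01 over all genes. Single libraries moved these values: hale ran from -0.025 without control replicate 1 to -0.14 without control replicate 2, and schuy from -0.025 without mutant replicate 1 to -0.098 without mutant replicate 2. boly was at -0.051 without mutant replicate 1, and schuy was at -0.025 after quantile normalization. Of the 7 listed cup and comet genes outside the 10, described below, 5 had a log2 fold change above 0 and 2 below.

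Among the cup genes t-cup had the largest difference. Its values were 6.19 and 6.22 in the controls against 5.97 and 6.06 in the mutants. The genotypes did not overlap and were 0.13 apart at their nearest libraries, the widest margin among the 10. The log2 fold change was -0.20 ± 0.06 (SE; interval -0.34 to -0.05), with an unadjusted p of 0.0137 and a limma adjusted p of 0.201. It ranked 499th of 7326 genes by p, and its absolute change lay at the 85.4th percentile of all genes. With 1 library left out, its log2 fold change ran from -0.24 to -0.15 and its adjusted p from 0.159 to 0.682.

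c-cup was at 6.54 and 6.62 in the controls against at 6.40 and 6.53 in the mutants. The higher mutant library came within 0.0065 of the lower control. The log2 fold change was -0.11 ± 0.07 (SE; interval -0.27 to 0.05; limma adjusted p = 0.599), which is smaller than the 0.13 between the mutant libraries.

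h-cup gave values of 6.25 and 6.10 in the controls against 6.15 and 6.12 in the mutants, with both mutant libraries inside the control range. m-cup gave 5.51 and 5.34 in the controls against 5.47 and 5.30 in the mutants, so that each genotype had a higher and a lower library about 0.17 apart. Neither gene separated the genotypes. Their log2 fold changes were -0.04 ± 0.07 for h-cup (SE; limma adjusted p = 0.875) and -0.03 ± 0.08 for m-cup (SE; limma adjusted p = 0.927).

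d-cup was the steadiest of the 10 over the 4 libraries, with values of 4.280 and 4.284 in the controls against 4.269 and 4.268 in the mutants. The mutants lay below the controls, but only by 0.011 at the nearest libraries. The log2 fold change was -0.01 ± 0.06 (SE; interval -0.16 to 0.13; limma adjusted p = 0.964). The standard error is far above the gaps between these libraries because limma moderates a gene's spread towards that of genes of like level.

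The remaining cup genes, r-cup and p-cup, had the lowest values and the widest spread. r-cup was at 4.26 and 4.03 in the controls against at 4.41 and 4.04 in the mutants. Its mutant libraries differed by 0.37 and its controls by 0.23, both more than the log2 fold change of 0.08 ± 0.13 (SE; interval -0.22 to 0.38; limma adjusted p = 0.882). p-cup was at 3.63 and 3.42 in the controls against at 3.76 and 3.53 in the mutants. Its genotypes overlapped too, since the lower mutant library lay below the higher control, and the log2 fold change was 0.12 ± 0.11 (SE; interval -0.13 to 0.37; limma adjusted p = 0.753). These were the 2 genes of the 10 with a log2 fold change above 0, and both values moved when single libraries were left out. That of p-cup was 0.00091 without mutant replicate 1, 0.016 without control replicate 2, 0.22 without control replicate 1 and 0.24 without mutant replicate 2. That of r-cup ran from -0.11 without mutant replicate 1 to 0.27 without mutant replicate 2.

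**Figure D2:**
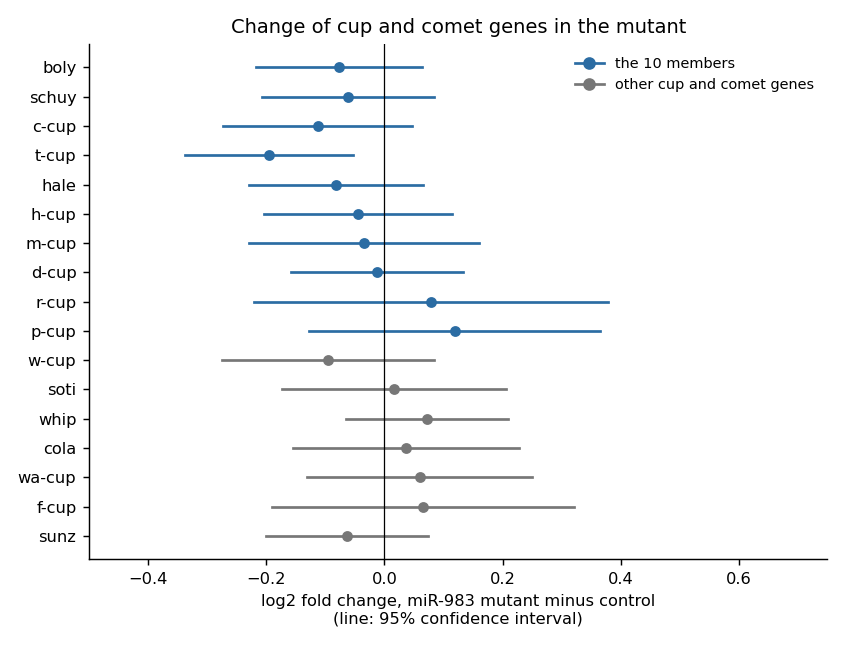
log2 fold change of mutant minus control (horizontal axis; points) with its 95% confidence interval (lines) for the 10 genes (blue) and 7 other cup and comet genes (grey). The interval of t-cup, -0.34 to -0.05, is the 1 interval that does not include 0, and no interval of these genes reaches beyond 0.38 in size.

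As a set, 8 of the 10 genes had a log2 fold change below 0, as did 54.5% of all genes. It was 8 as well after median ratio scaling and after quantile normalization, against 49.7% and 49.8% of all genes. The median of the 10 was -0.05, beside -0.01 for all genes. Their median absolute change was 0.078, close to the 0.075 of all genes. The 95% intervals, which are not adjusted for the number of genes, reached no further than 0.38 on the log2 scale in either direction, a 1.30-fold change. Larger differences therefore lie outside the interval of each of the 10 genes.

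In 6 of the 10 genes both mutant libraries were below both controls (boly, schuy, hale, t-cup, c-cup and d-cup), and in 0 genes were both above. Over all genes 24.3% were lower without overlap and 17.9% were higher. This count leaned on small margins and on the scaling of the libraries. After median ratio scaling, which shifted the libraries by 0.011 or less, it was 3 genes (boly, hale and t-cup), against 21.6% of all genes. After quantile normalization it was 5, with schuy no longer among them, against 21.9% of all genes. Both of these scalings were applied to the count after the data were examined. The larger gap between libraries of 1 genotype exceeded the absolute log2 fold change in 7 of the 10 genes and in 69.4% of all genes. The exceptions among the 10 were boly, t-cup and d-cup.

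**Figure D3:**
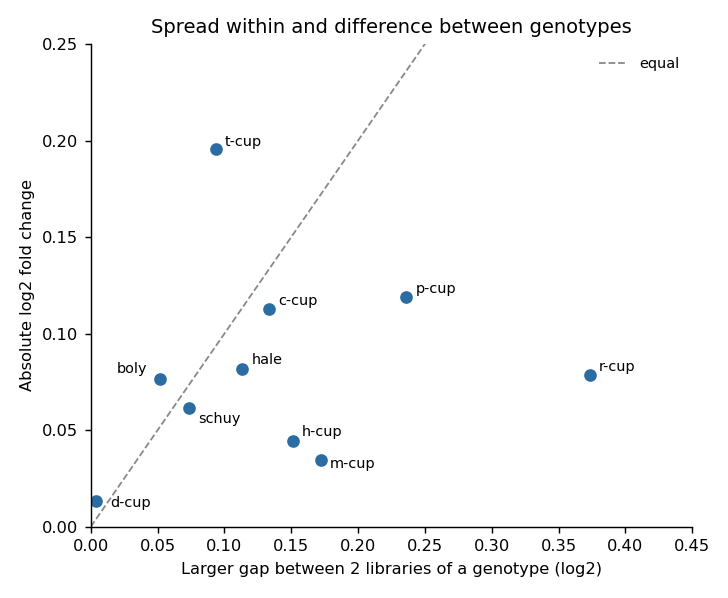
Larger gap between the 2 libraries of a genotype (horizontal axis, log2) against the absolute log2 fold change (vertical axis) for each of the 10 genes; the dashed line marks equality. Only t-cup, boly and d-cup lie above the line, and r-cup, with a gap of 0.37, lies farthest to the right.

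The labels do not say whether the values are divided by transcript length, so the order of the genes is that of the deposited values and not of transcript numbers. All 10 genes had control means above the median of the table, from the 55.5th percentile (p-cup) to the 97.3rd (boly). Their control means spanned 3.87 on the log2 scale. In falling order they were boly (7.40 ± 0.02, SD, n = 2), schuy (7.25 ± 0.03), c-cup (6.58 ± 0.06), t-cup (6.21 ± 0.02), hale (6.18 ± 0.08), h-cup (6.18 ± 0.11), m-cup (5.42 ± 0.12), d-cup (4.28 ± 0.0029), r-cup (4.15 ± 0.16) and p-cup (3.53 ± 0.15). Of the 9 pairs of neighbours in this order, 7 were separated in the control libraries. The exceptions were t-cup with hale and hale with h-cup, whose libraries overlapped. In the mutants 8 of the 9 pairs were separated, and d-cup overlapped r-cup. There t-cup, hale and h-cup stood in the reverse order, at 6.01 ± 0.07, 6.10 ± 0.02 and 6.13 ± 0.02 (SD, n = 2), and the nearest libraries were 0.024 apart for t-cup and hale and 0.0054 apart for hale and h-cup. Whether the order of these 3 genes differs between the genotypes was not tested.

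**Figure D4:**
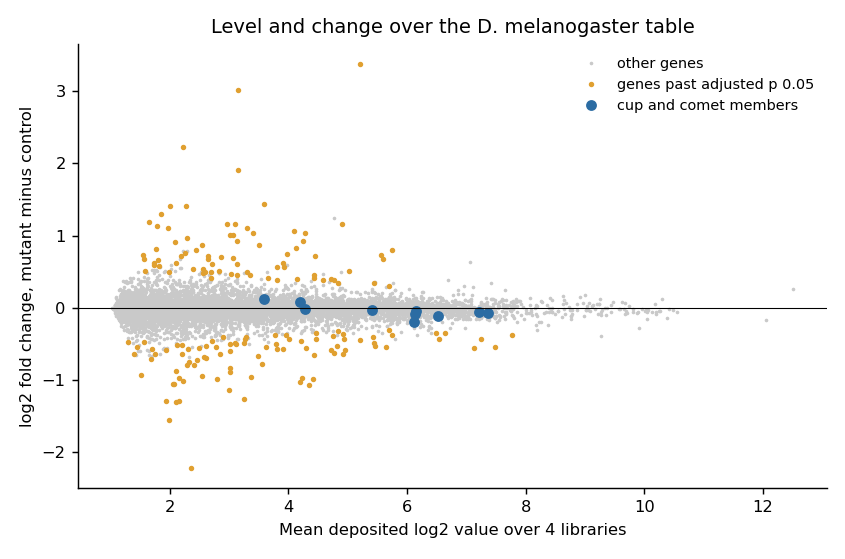
Mean deposited log2 value over 4 libraries (horizontal axis) against the log2 fold change (vertical axis) for all 7326 genes; orange points are the 167 genes past adjusted p 0.05 and blue points are the 10 cup and comet genes. The 10 lie above the median level of the table and between -0.20 and 0.12 in change.

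Several of these genes lie close to each other or inside other genes. In the gene order of assembly Release 6 plus ISO1 MT, hale and schuy are direct neighbours with 0 genes between them. boly lies 1 gene away from cola, which is itself the neighbour of whip. All of boly, cola and whip overlap the annotated span of pdm3, a POU domain transcription factor gene. Of the 10 genes, 6 overlap another annotated gene and 4 (hale, m-cup, r-cup and p-cup) overlap none. How reads were assigned by strand is not stated, so values of the 6 could hold reads of their partners.

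The partners of 4 of these genes are listed and can be set beside them. pdm3, the partner of boly, was at 5.97 and 6.004 in the controls against 5.87 and 5.98 in the mutants (log2 fold change -0.07 ± 0.06, SE). The antisense RNA asRNA:CR44235, which overlaps d-cup, was at 4.55 and 4.54 in the controls against 4.53 and 4.48 in the mutants (-0.04 ± 0.06). Rbp, the partner of h-cup, lay far lower on the deposited scale than h-cup, at 2.09 and 1.94 in the controls against 1.99 and 1.96 in the mutants (-0.04 ± 0.10). mir-2280, a microRNA gene that overlaps c-cup, was listed at 5.62 and 5.84 in the controls against 5.80 and 5.71 in the mutants (0.03 ± 0.08). None of the 4 partners passed the limma test (adjusted p between 0.770 and 0.949). The partners of schuy (Csas) and t-cup (bun) are not listed.

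The further cup and comet genes that were looked up did not pass the test either. Of 9 further names, 8 were found among the FlyBase symbols and 7 are listed, with 0 past the threshold. The log2 fold changes of the 7 ran from -0.09 for w-cup to 0.07 for whip, with a median of 0.04, and 5 of the 7 were above 0. soti was at 7.43 and 7.31 in the controls against at 7.48 and 7.30 in the mutants (log2 fold change 0.02 ± 0.08, SE), with the mutant libraries on either side of the controls. w-cup had the highest value of the 7, at 9.43 and 9.37 in the controls against 9.28 and 9.32 in the mutants (limma adjusted p = 0.718). whip was the 1 gene of the 7 with both mutant libraries above both controls, at 6.67 and 6.65 in the controls against 6.76 and 6.70 in the mutants. sunz, at 4.90 and 4.91 against 4.85 and 4.83, and w-cup were lower in both mutants. The changes of cola (0.04 ± 0.08), whose row holds the same values as that of the overlapping gene swif, wa-cup (0.06 ± 0.08) and f-cup (0.07 ± 0.11) were each smaller than the gaps between libraries of the same genotype.

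A microRNA lowers the mRNAs it pairs with, so the predicted targets of miR-983 are of interest in a knockout. The authors' deposited table marks 0 of the 10 genes as a target, by TargetScan for miR-983-5p or miR-983-3p or by PITA for miR-983-5p, and marks 11.6% of all genes by at least 1 of these. Among the 7 other genes 2 carry a mark, whip for miR-983-5p and f-cup for miR-983-3p, both by TargetScan. Neither passed the test (limma adjusted p = 0.723 and 0.889).

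The machinery that acts before and after these genes was described from 8 more lists of germline genes: the tMAC complex and testis TAFs, which switch on the spermatocyte program, testis bromodomain proteins, spermatid individualization, sperm chromatin, sperm genes translated with delay, meiotic entry and early germline. With the 7 other cup and comet genes, 52 of 61 named genes were listed, and 1 of them, tbrd-3, rose while 0 fell, where 2.28% of all genes were called. The median log2 fold change of the 52 was -0.03. tbrd-3, a testis bromodomain gene, was at 3.99 and 3.89 in the controls against 4.34 and 4.34 in the mutants (log2 fold change 0.40 ± 0.07, SE; limma adjusted p = 0.0294). Its call was lost without control replicate 2 (0.0647), without mutant replicate 1 (0.0762) and without mutant replicate 2 (0.0765), each a limma adjusted p. Without control replicate 1 the count was 3, with mia higher and Mst84Db lower in the mutants. All 8 tMAC genes had a log2 fold change below 0, between -0.11 and -0.02, with 0 past the threshold, and 54.5% of all genes were below 0. In 7 of the 8 the larger gap between libraries of 1 genotype exceeded the absolute change, as it did in 69.4% of all genes.

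**Figure D5:**
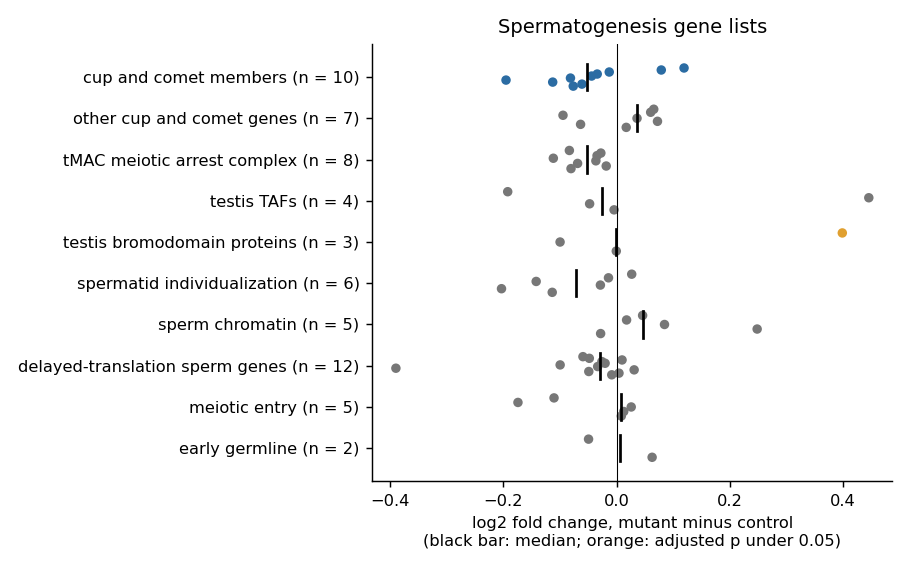
log2 fold change (horizontal axis) of each listed gene of the cup and comet set and of 9 further germline lists (rows); black bars are medians and the orange point is the 1 gene past adjusted p 0.05, tbrd-3. The medians of the 10 rows lie between -0.07 and 0.05.

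The libraries carried transcripts of genes used in male germ cells from meiotic entry on. All 5 sperm chromatin genes were listed, with a mean log2 value of 6.999 to 7.15 per library. So were all 5 meiotic entry genes and 6 of 9 spermatid individualization genes. By contrast, 2 of 5 early germline genes were listed, and 1 of 5 hub and cyst cell genes (upd1, a hub cell signal, at 1.39 to 1.95). The stage of the cells that held these transcripts was not tested. The knocked-out gene cannot be followed, since 0 rows carry a mir-983 symbol. In bulk testes, fewer spermatids and less RNA per spermatid cannot be told apart. Markers of other tissues differed between libraries. Of 7 fat body markers 2 are listed, Tsf1 and NLaz, and both passed the test, where 2.28% of all genes did. The log2 fold change was 0.80 ± 0.11 for Tsf1 (SE; limma adjusted p = 0.0103) and 0.62 ± 0.08 for NLaz (SE; limma adjusted p = 0.0077). Their mean was 4.51 and 4.43 in the controls against 5.05 and 5.31 in the mutants. Of 8 accessory gland markers 1 is listed, Acp95EF, at 4.16 and 4.12 in the controls, 4.42 in mutant replicate 1 and 6.34 in mutant replicate 2. The 4 listed of 8 muscle markers had means of 2.77 and 2.42 in the controls against 2.54 and 2.67 in the mutants. Whether these tissues were in the libraries, and whether they bear on the values of the cup and comet genes, was not tested. Sequencing depth is unknown, because read totals are not given with the values. The lowest listed value was 1.0009 in control replicate 2 and 1.0029 in mutant replicate 2, and the other libraries lay between. Genes below that level in a library may have been left out. A marker that is not listed can therefore still be expressed, in some or all libraries.

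The likeness of other genes to the cup and comet set was measured over the 4 libraries as the root mean square distance to the mean of the centred profiles of the 10. The nearest non-member genes were Arp5 (0.0036), Slc25A46b (0.0037) and CG8236 (0.0038), against a median distance of 0.0825 over all genes. The mean profile of the 10 lay at 0.06 and -0.02 in the controls and at 0.00056 and -0.04 in the mutants around its own mean. The log2 fold change of each of the 3 nearest genes was -0.05, a value that their choice by this profile fixes. The distances of the 10 genes to their own mean profile are not given here. Their log2 fold changes ran from -0.20 to 0.12, so a gene near the mean need not be near the single members.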

How the data were processed

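RNA-seq values of D. melanogaster testes (2 control and 2 miR-983 mutant libraries) were used as log2 expression values deposited by the authors, 1 column per library. TopHat is named in the submitters' processing notes. Of counter, build, annotation, strand handling, pseudocount and scaling, none is given in the sources used here. The deposited log2 fold change is the authors' difference of group means and matched the one computed here within 1.5e-06. The table also holds the authors' Yes/No marks for predicted targets and DESeq2 calls, per the file headers. Of 7326 identifiers 7195 matched a symbol. No column was left unmapped (0 columns).

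All genes were fitted with limma 3.58.1 in R 4.3.3 (empirical Bayes trend, two-sided, Benjamini-Hochberg over all genes, threshold 0.05), without a pseudocount, a filter or a block; fold changes can understate those of low genes. The fit was tested on simulated data. Alternatives were leaving out each library, a replicate block, 2 scalings, a pseudocount of 1, a filter at a mean log2 value of 2 and no trend. Gene order came from assembly Release 6 plus ISO1 MT and served only for neighbours and overlap. All listed members and other cup and comet genes were named, and of further lists only called genes; neighbours, partners and other genes named for a marker or a changed count were chosen after their values were seen. The members and lists were chosen with earlier results of these data known. Means are given with their SD (n = 2 libraries). Depth is unknown, so no counting intervals are given.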

Additional observations from a re-analysis of the deposited data

How the results depend on the processing

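None of the 10 genes was called under any alternative but the replicate block, where the count was 1, t-cup (log2 fold change -0.20 ± 0.04, SE; limma adjusted p = 0.0275; 0.155 to 0.682 under the other alternatives), with 4 calls in the germline lists and 503 over all genes. The labels do not say that a replicate number marks a shared batch, and whether it does was not tested. The differences between replicate 1 and 2 correlated at 0.15 between the genotypes across 7326 genes, which are not independent, and had the same sign in 62.3% of genes and 7 of the 10. The median change of the 10 ran from -0.08 to -0.02 with 1 library left out, the calls over all genes from 118 to 304 and those in the germline lists from 0 to 3. Without the trend the germline lists had 0 calls. The count of 6 genes without overlap was 3 after median ratio scaling. The sign of the change depended on single libraries (leave-one-out range) for h-cup (-0.12 to 0.031), m-cup (-0.12 to 0.052), r-cup (-0.11 to 0.27), cola (-0.050 to 0.12), f-cup (-0.064 to 0.20), soti (-0.076 to 0.11) and wa-cup (-0.024 to 0.14), none of them called. The cause was not tested. The other 94 values of single members kept their direction and their side of the threshold. With 2 libraries per genotype and unknown depth, small differences of these genes cannot be resolved.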

Other observations

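The region around boly holds further genes that the lists did not include. Whether they too are cup or comet genes was not examined, so the 7 further genes summarized above may not cover the whole family. The genes of this region are given as values. swif, which lies between cola and boly and overlaps cola, has a row with the same 4 values as cola (6.02 and 5.84 in the controls, 6.05 and 5.88 in the mutants), equal to 7 decimals. The values of cola can therefore not be taken as those of cola alone. hubl, the neighbour of whip on its other side, likewise shares all 4 values with the gene spaw, so its row is not its own either. That row was at 7.47 and 7.46 in the controls against 7.32 and 7.38 in the mutants, with both mutants below both controls (log2 fold change -0.11 ± 0.06, SE; limma adjusted p = 0.531). Over all genes, 219 of 7326 rows, 2.99%, share all 4 values with another row, in 106 groups, and 0 of the 10 cup and comet genes described here are among them. CG18449, on the other side of boly, was at 9.27 and 9.35 in the controls against 9.18 and 9.37 in the mutants.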
